A study of Homo sapiens with 6 samples.

Results

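Copper handling genes were examined in 6 arrays of the established human melanoma line A375, 72 h after transfection with siFAH, a small interfering RNA against fumarylacetoacetate hydrolase (3 arrays), or with negative control siRNA (3 arrays). FAH is the last enzyme of tyrosine breakdown. Cultures of both groups received an siRNA, the design note calls the replicates biological, and the sources used here do not say which siRNA against FAH the arrays used. The 10 genes were SLC31A1, SLC31A2, ATP7A, ATP7B, ATOX1, CCS, SCO1, SCO2, MT2A and MT1X, out of 18372 genes with a probe set that names 1 gene symbol. SLC31A1 was chosen on its siFAH minus control siRNA difference in these same arrays, as one of the largest decreases, and the other 9 were listed around it as genes of copper handling. Its values are therefore given as a description with no test.

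Copper is an essential cofactor that is toxic when free, so cells pass it from protein to protein. The transporter CTR1, encoded by SLC31A1, brings reduced copper across the plasma membrane. Chaperones then carry it to the secretory pathway, to cytosolic superoxide dismutase and to cytochrome c oxidase in mitochondria, ATP-driven pumps export it, and metallothioneins bind the excess. In the melanocyte lineage copper is also the cofactor of tyrosinase, the enzyme that starts melanin synthesis.

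Each array (Affymetrix Human Gene 1.0 ST) gave 1 log2 signal per probe set, and for each gene the probe set with the highest mean over the 6 arrays was used. Differences are siFAH minus control siRNA on the log2 scale, and a call means an adjusted p from limma under 0.05, with the adjustment made over all 18372 genes. Array medians were 5.003 to 5.038 in siFAH arrays and 4.922 to 4.996 in control siRNA arrays, with the lowest in control siRNA replicate 3. FAH itself had a mean signal of 4.81 ± 0.19 in siFAH arrays and 5.58 ± 0.10 in control siRNA arrays (SD, n = 3 each), a difference of -0.77 (SE 0.098, adjusted p = 0.00213 from limma). Of 9 measured melanocyte markers, SOX10 averaged 8.36 in siFAH arrays and 8.56 in control siRNA arrays, MITF 6.57 in siFAH arrays and 6.60 in control siRNA arrays, and S100B 7.33 in siFAH arrays and 7.26 in control siRNA arrays. The pigment genes PMEL, MLANA, TYR and TYRP1 and the lineage marker GPM6B lay at or below 3.99 in every array, under the median of all probe sets (4.99). None of the 9 was called (none by SAM or by the methods' t-test after adjustment). SOX10 was called lower with median centring, array weights, a trend and robust variance or without dim genes. At an unadjusted p under 0.05 by limma 1 was higher and 2 were lower, a limit at which all genes were not counted. The 10 markers of immune, epithelial, endothelial, liver, erythroid and stromal cells had list means of 3.95 to 4.01 in siFAH arrays and 3.83 to 3.96 in control siRNA arrays. KRT14 (means 5.64 in siFAH and 5.38 in control siRNA arrays) and PDGFRB (5.21 in both) lay above the median of all probe sets in every array. None of the 10 was called either (none by SAM or the methods' t-test). At an unadjusted p under 0.05 by limma 1 was higher, again with all genes not counted. The largest differences were those of S100A1 (0.33, adjusted p = 0.205) and MLANA (0.26, adjusted p = 0.148) among the melanocyte markers and those of KRT14 (0.26, adjusted p = 0.118) and PTPRC (0.18, adjusted p = 0.221) among the others, from limma. KRT14 was called higher with array weights, and KRT14 and HBB were called higher without control siRNA replicate 1.

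SLC31A1, the copper importer, had log2 signals of 7.23, 7.06 and 7.22 in siFAH arrays, against 8.13, 8.25 and 8.76 in control siRNA arrays. The groups did not overlap, and the highest siFAH array stood 0.91 below the lowest control siRNA array. The group means were 7.17 ± 0.095 in siFAH arrays and 8.38 ± 0.33 in control siRNA arrays (SD, n = 3 each), a difference of -1.21, so that the siFAH signal was 0.431 of the control siRNA signal. In the order of all 18372 differences it came first among the decreases, ahead of RAB1C (-1.17) and FST (-1.16). The control siRNA arrays were more spread than the siFAH arrays, mostly through replicate 3, and without that array the difference was -1.03. Over every alternative processing it stayed between -1.34 and -1.03. The arrays read RNA of whole cultures, so fewer cells with the transcript and less transcript per cell cannot be told apart here or for any gene below.

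**Figure D1:**
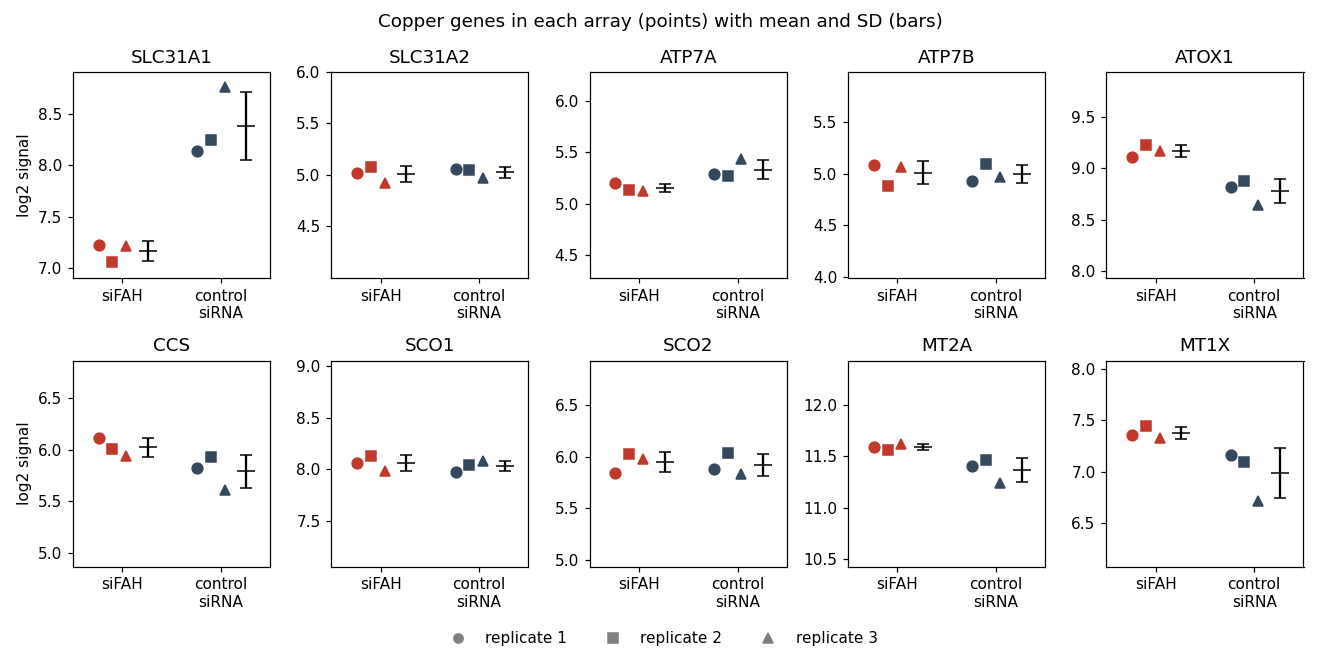
Log2 signal (vertical axis, each panel spanning 2 log2 units around its own midpoint) of the 10 copper genes in 3 siFAH arrays (red, left) and 3 control siRNA arrays (dark blue, right), with marker shapes for the replicate number and bars for the mean and SD. SLC31A1 lay lower in every siFAH array by at least 0.91, ATOX1, CCS, MT2A and MT1X lay higher in every siFAH array, ATP7A lay lower in every siFAH array, and the other 4 genes overlapped.

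By the distance between array profiles, after each gene was centred on its control siRNA mean, the 5 genes nearest to SLC31A1 over the 6 arrays were NIBAN1 (distance 0.346), RAB1C (0.350), LPCAT2 (0.409), FST (0.442) and TRIM2 (0.490). This distance rests mostly on the size of the fall, on which SLC31A1 was chosen. The nearest genes are therefore other large decreases (-0.97 for TRIM2 to -1.17 for RAB1C), and shared regulation was not tested. FST encodes follistatin, an activin antagonist, and LPCAT2 is an enzyme of phospholipid remodeling. Among its RefSeq neighbours on the chromosome the differences were smaller. FKBP15 had -0.13 (adjusted p = 0.313 from limma) and CDC26, a subunit of the anaphase-promoting complex, had 0.055 (adjusted p = 0.778). PRPF4, a spliceosome component, fell by 0.33 (SE 0.077, adjusted p = 0.0260 from limma) and its arrays did not overlap.

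The 250 bases upstream of the SLC31A1 start site (RefSeq, GRCh38.p14, chr9:113221294-113221543, plus strand) are shown because this was the gene that differed most. Capitals mark the GC box GGGCGG, the core sequence bound by the transcription factor SP1, which is known to regulate this gene in human cells.
SLC31A1: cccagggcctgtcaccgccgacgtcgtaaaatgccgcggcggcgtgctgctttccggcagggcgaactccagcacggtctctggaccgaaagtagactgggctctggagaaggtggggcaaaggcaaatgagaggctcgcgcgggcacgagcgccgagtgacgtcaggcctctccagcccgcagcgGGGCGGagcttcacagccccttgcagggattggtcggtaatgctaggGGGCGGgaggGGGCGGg
Searched on both strands, the window held 3 GC boxes, beginning at -64, -17 and -7 bases from the start. Of 35116 RefSeq promoter windows of this length, 42.64% held at least 1 GC box and 12.81% at least 3. The same window held no match to the core of the metal response element, TGCACNC or TGCGCNC on either strand, which 24.83% of the windows held. GC boxes were not particular to SLC31A1 among the copper genes. ATP7B, with a difference of 0.012, held 3 in each of the windows of its start sites 1 and 2. Those windows overlap and share some of their boxes, and the window of its start site 3 held none. The window of its start site 2 also held 2 metal response element cores.

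Differences of the other 9 genes ran from -0.18 for ATP7A to 0.39 for ATOX1, and the set as a whole was not tested. ATOX1 and MT1X were called higher, none was called lower and 7 were not called, where 3.48% of all genes were called higher and 6.38% lower. At the methods' limits 2 of the 9 were higher and none lower, beside 871 higher and 1439 lower of all genes. Arrays of the groups did not overlap in 4 genes with siFAH higher (ATOX1, CCS, MT2A and MT1X) and in 1 with siFAH lower (ATP7A), against 13.4% and 18.6% of all genes. The median of the 9 differences was 0.034, against 0.0050 for all genes, and 7 of the 9 were above 0, as were 9448 of all 18372 genes. With median centring, 4 of the 10 copper genes (SLC31A1 included) were above 0 and their median was -0.022. That setting also lowered the median of all genes, to -0.049. SAM also called 2 of the 9 higher and none lower, beside 863 higher and 1518 lower of all genes. The methods' t-test called none of the 9 after adjustment.

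**Figure D2:**
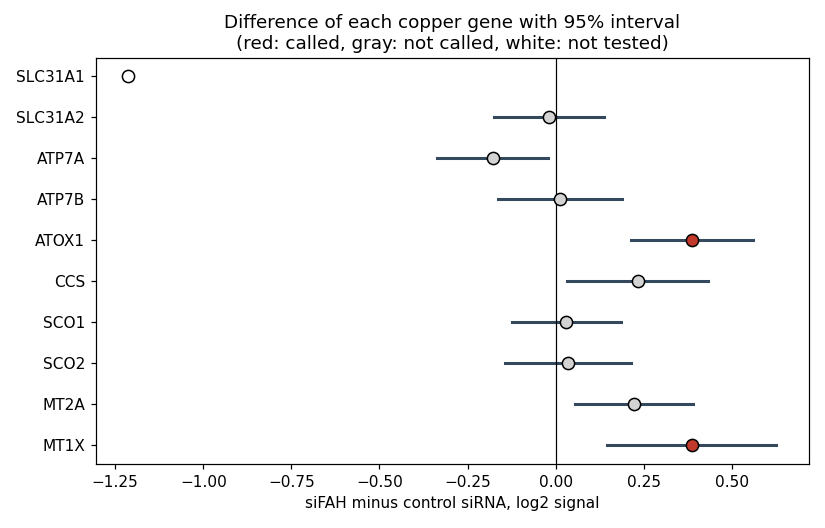
Horizontal axis, difference in log2 signal (siFAH minus control siRNA) of the 10 copper genes, with its 95% interval from limma (line), red where called, gray where not called and white for SLC31A1, which was not tested. SLC31A1 lay at -1.21, ATOX1 and MT1X at 0.39 each, and the intervals of SLC31A2, ATP7B, SCO1 and SCO2 spanned 0.

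SLC31A2 encodes CTR2, the relative of CTR1 found in endosomes and lysosomes, and lies close to SLC31A1 on the same chromosome. Its signals were 5.02, 5.08 and 4.92 in siFAH arrays and 5.05, 5.05 and 4.97 in control siRNA arrays. The groups overlapped fully, near the median signal of all probe sets. The difference was -0.018 (SE 0.071, adjusted p = 0.902 from limma), with a 95% interval of -0.17 to 0.14.

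ATP7A and ATP7B are the copper-transporting ATPases, which load copper into the secretory pathway and export it, and are the genes of Menkes disease and Wilson disease. ATP7A had signals of 5.20, 5.14 and 5.13 in siFAH arrays, against 5.29, 5.27 and 5.43 in control siRNA arrays. The siFAH arrays were all lower, by a gap of 0.075, and control siRNA replicate 3 was the highest, as it was for SLC31A1. The difference of -0.18 (SE 0.071, 95% interval -0.34 to -0.022) did not pass after adjustment (adjusted p = 0.141 from limma). ATP7B had signals of 5.08, 4.88 and 5.06 in siFAH arrays and 4.92, 5.09 and 4.97 in control siRNA arrays. These overlapped, the difference was 0.012 (SE 0.080, adjusted p = 0.943 from limma) and its 95% interval ran from -0.16 to 0.19. Its sign was negative with median centring (-0.042), quantile normalization (-0.040) or cyclic loess (-0.031).

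ATOX1, the chaperone that hands copper to both ATPases, rose. Its signals were 9.11, 9.23 and 9.16 in siFAH arrays, against 8.81, 8.87 and 8.64 in control siRNA arrays. All siFAH arrays were higher, with a gap of 0.23 between the groups, and control siRNA replicate 3 was again at an extreme, here the lowest. The difference was 0.39 (SE 0.078, adjusted p = 0.0145 from limma), which is 1.31-fold, with a 95% interval of 0.21 to 0.56. The call was lost without siFAH replicate 2 (adjusted p = 0.0605) or siFAH replicate 3 (adjusted p = 0.0505) and with the methods' t-test (adjusted p = 0.130), and the adjusted p ran from 0.00435 to 0.130 over all alternatives.

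The upstream window of ATOX1 (RefSeq, GRCh38.p14, chr5:151758632-151758881, minus strand, printed as read toward the start) is shown as that of the chaperone that was called. Capitals mark its match to the metal response element core, here 1 run in which matches on both strands overlap and were counted as 1.
ATOX1: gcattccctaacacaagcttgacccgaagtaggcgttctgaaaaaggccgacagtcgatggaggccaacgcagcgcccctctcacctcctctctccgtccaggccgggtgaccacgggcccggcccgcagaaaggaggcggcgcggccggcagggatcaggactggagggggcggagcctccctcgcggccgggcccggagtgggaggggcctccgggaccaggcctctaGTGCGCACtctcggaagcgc
The match began at -20 bases from the start, and the window also held 1 GC box. At least 1 metal response element core was found in 24.83% of all promoter windows.

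CCS, the chaperone that loads copper into cytosolic superoxide dismutase, had signals of 6.12, 6.01 and 5.94 in siFAH arrays, against 5.82, 5.93 and 5.62 in control siRNA arrays. The groups touched but did not overlap, with a gap of 0.0059, and control siRNA replicate 3 was the lowest. The difference was 0.23 (SE 0.091, 95% interval 0.033 to 0.43) and was not called (adjusted p = 0.133 from limma). Without control siRNA replicate 3 it was 0.15. The upstream window of CCS held 1 metal response element core and no GC box.

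SCO1 and SCO2 are the inner membrane proteins that deliver copper to cytochrome c oxidase, and neither differed beyond its error. SCO1 had signals of 8.07, 8.14 and 7.99 in siFAH arrays and 7.98, 8.04 and 8.08 in control siRNA arrays. SCO2 had 5.84, 6.03 and 5.98 in siFAH arrays and 5.88, 6.03 and 5.83 in control siRNA arrays. Both pairs of groups overlapped. The differences were 0.030 for SCO1 (95% interval -0.12 to 0.18, adjusted p = 0.825 from limma) and 0.034 for SCO2 (95% interval -0.14 to 0.21, adjusted p = 0.826). Both were below 0 after median centring (-0.024 and -0.020), where the median of all genes was -0.049. SCO2 overlaps TYMP in the RefSeq annotation, so its signal may hold that of its neighbour.

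The metallothioneins, small cysteine-rich proteins that bind copper and zinc, are the storage end of the pathway. MT1X had signals of 7.36, 7.44 and 7.33 in siFAH arrays, against 7.17, 7.09 and 6.71 in control siRNA arrays. All siFAH arrays were higher, by a gap of 0.17, and control siRNA replicate 3 stood 0.38 below the next control array. The difference was 0.39 (SE 0.11, 95% interval 0.15 to 0.63, 1.31-fold), just past the threshold (adjusted p = 0.0487 from limma). It was 0.25 without control siRNA replicate 3 (adjusted p = 0.0928) and its call was also lost with median centring (adjusted p = 0.0506), in the methods' t-test (adjusted p = 0.241), with every probe set tested on its own (adjusted p = 0.0510) and when any other array except control siRNA replicate 1 was left out (adjusted p from 0.0780 to 0.137, and from 0.0239 to 0.241 over all alternatives).

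MT2A had signals of 11.59, 11.56 and 11.62 in siFAH arrays, against 11.40, 11.46 and 11.24 in control siRNA arrays. The siFAH arrays were tightly grouped and all higher, by a gap of 0.094, with control siRNA replicate 3 lowest. The difference was 0.22 (SE 0.076, 95% interval 0.054 to 0.39, 1.17-fold) and was not called (adjusted p = 0.0925 from limma). It passed with dim probe sets left out (adjusted p = 0.0467) or with a trend and robust variance (adjusted p = 0.0422), and its adjusted p ran up to 0.234 over the alternatives. The other MT2A probe sets, tested on their own, gave 0.18 (adjusted p = 0.162) and 0.19 (adjusted p = 0.143).

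The upstream windows of both genes (RefSeq, GRCh38.p14, plus strand, MT2A at chr16:56608334-56608583 and MT1X at chr16:56682220-56682469) are shown for their density of metal response elements, the sites of the zinc-sensing factor MTF1. Capitals mark each match to TGCACNC or TGCGCNC on either strand.
MT2A: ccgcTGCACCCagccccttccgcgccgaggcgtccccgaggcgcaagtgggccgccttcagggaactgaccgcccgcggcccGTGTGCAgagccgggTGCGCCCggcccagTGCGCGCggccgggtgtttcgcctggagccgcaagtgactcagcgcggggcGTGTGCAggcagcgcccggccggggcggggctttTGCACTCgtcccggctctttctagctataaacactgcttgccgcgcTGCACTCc
MT1X: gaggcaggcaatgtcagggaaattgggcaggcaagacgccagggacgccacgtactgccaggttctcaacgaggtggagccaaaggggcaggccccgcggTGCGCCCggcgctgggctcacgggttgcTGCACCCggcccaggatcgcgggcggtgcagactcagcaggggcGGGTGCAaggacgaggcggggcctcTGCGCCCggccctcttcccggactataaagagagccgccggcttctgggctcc
MT2A held 7 matches and MT1X held 4. At least 4 were found in 0.21% of all promoter windows and at least 6 in 0.03%. Of the other metallothioneins with a RefSeq window, MT1H held 8 and MT1B and MT4 held 3 each. A match shows the letters, not binding.

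**Figure D3:**
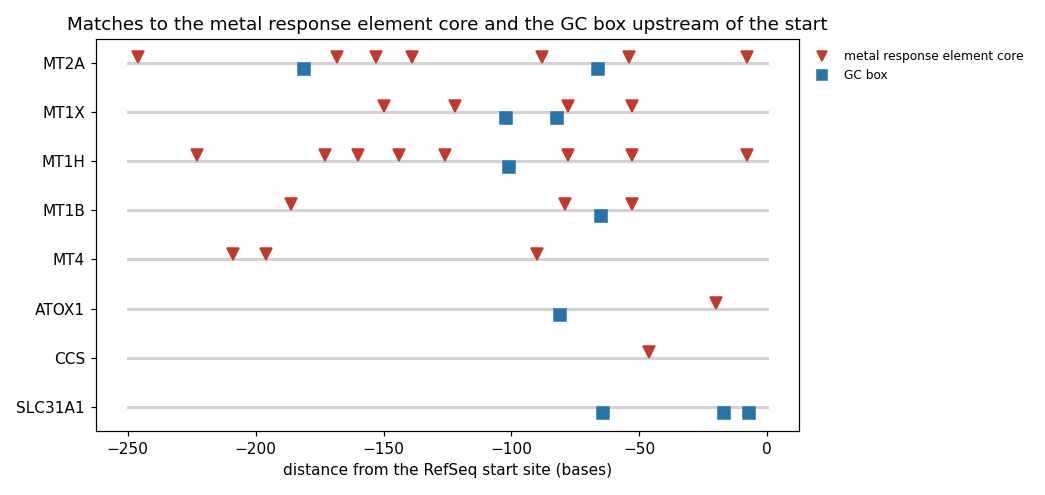
Position of each match to the metal response element core (red triangles) and to the GC box (blue squares) in the 250 bases before the RefSeq start (horizontal axis, distance from the start in bases) of 8 genes. MT2A and MT1X held 7 and 4 metal response element cores, ATOX1 and CCS 1 each, and SLC31A1 held 3 GC boxes and no metal response element core. ATP7B, which is not drawn, also held 3 GC boxes in each of the overlapping windows of its start sites 1 and 2.

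Over the metallothionein family, 10 genes were measured and MT1A was not analysed here. MT1X, MT1G and MT1E were called higher, none was called lower and 7 were not called, where 3.48% of all genes were called higher and 6.38% lower. SAM called 3 higher and none lower, beside 863 higher and 1518 lower of all genes, and the methods' t-test called none. At the methods' limits 4 were higher and none lower, beside 871 higher and 1439 lower of all genes. The median difference was 0.24, against 0.0050 for all genes, and 9 of 10 differences were above 0. In 6 of the 10 all siFAH arrays lay above all control siRNA arrays, as in 13.4% of all genes. MT1G had signals of 7.24, 7.24 and 7.26 in siFAH arrays, against 6.87, 7.00 and 6.83 in control siRNA arrays, with no overlap. Its difference was 0.35 (SE 0.069, adjusted p = 0.0137 from limma), a call lost without siFAH replicate 2 or 3. MT1E had signals of 6.37, 6.29 and 6.47 in siFAH arrays, against 6.20, 6.06 and 5.98 in control siRNA arrays, also without overlap, and a difference of 0.30 (SE 0.081, adjusted p = 0.0426 from limma). Like that of MT1X, the MT1E call was lost with median centring and without any 1 array other than control siRNA replicate 1.

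MT1H (0.29), MT1F (0.25), MT4 (0.18) and MT1B (0.16) were not called, and neither were MT3 (0.031) and MT1M (-0.012). MT1B (means 5.11 in siFAH and 4.95 in control siRNA arrays) and MT4 (4.99 and 4.81) lay near the median of all probe sets. MT1M (3.97 and 3.98) lay below it. MT3 is best known from brain. In 9 of the 10 genes control siRNA replicate 3 was the lowest control array (90.0%), which held for 37.3% of all genes, and this array also had the lowest weight (0.428) when arrays were weighted by their residuals. Without it the median of the list was 0.14 and 1 gene was called. The count was also 1 with median centring and without siFAH replicate 1 or control siRNA replicate 2, and it was 0 without siFAH replicate 2 or 3. Metallothionein genes are close copies of each other, so their probe sets may share signal and are not independent readings.

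**Figure D4:**
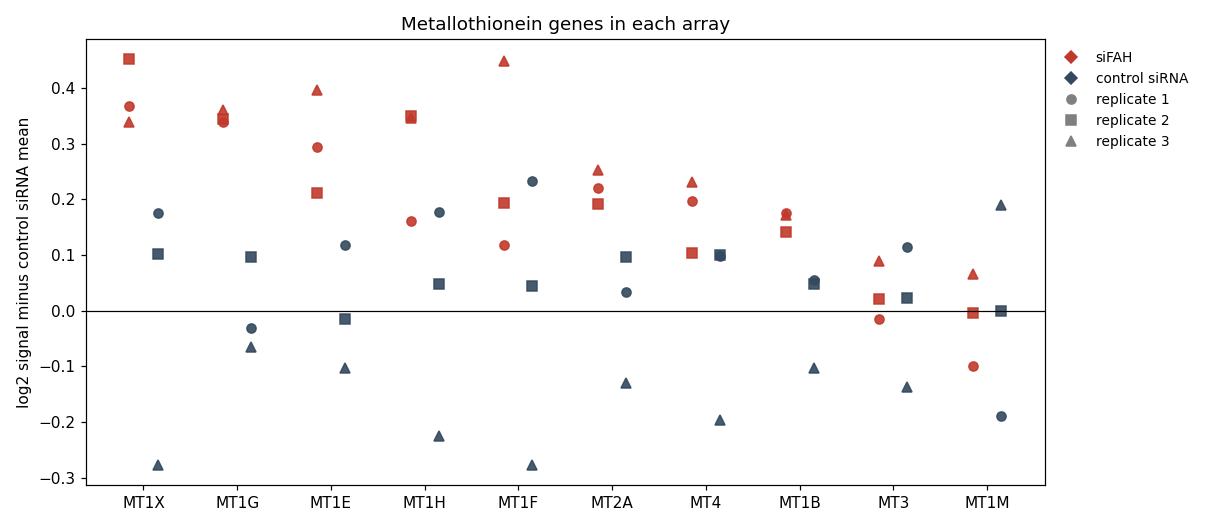
Log2 signal minus the gene's control siRNA mean (vertical axis) of the 10 measured metallothioneins in 3 siFAH arrays (red, left of each pair) and 3 control siRNA arrays (dark blue), with marker shapes for the replicate number. The siFAH arrays lay above all control siRNA arrays in 6 genes, which held for 13.4% of all genes, and control siRNA replicate 3 (triangles) was the lowest control array in 9 of the 10.

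Beyond copper import, export and storage, 13 genes of copper delivery to mitochondria and cytochrome oxidase assembly were measured, SCO1 and SCO2 among them, and COX17, COX19 and COX16 were not analysed here. CMC1 and CHCHD7 were called higher, none lower and 11 were not called (all genes, 3.48% higher and 6.38% lower). The median was 0.030 (-0.024 with median centring, where that of all genes was -0.049). CMC1, an assembly factor of cytochrome c oxidase, had signals of 5.48, 5.83 and 5.94 in siFAH arrays, against 5.25, 5.24 and 5.22 in control siRNA arrays. The siFAH arrays varied more but did not overlap the control siRNA arrays, and the difference was 0.51 (SE 0.11, adjusted p = 0.0161 from limma). CHCHD7, the human counterpart of yeast Cox23, had 4.94, 4.86 and 4.77 in siFAH arrays, against 4.42, 4.40 and 4.45 in control siRNA arrays, and a difference of 0.44 (SE 0.070, adjusted p = 0.00545). All its signals lay under the median of all probe sets. The CMC1 call was lost without either of siFAH replicates 2 and 3 or control siRNA replicates 2 and 3.

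Of 19 copper enzymes and their relatives, 4 were called higher and 1 lower, against 3.48% and 6.38% of all genes. The median was 0.018 (-0.036 with median centring, where that of all genes was -0.049). MOXD1, a monooxygenase related to dopamine beta-hydroxylase, had signals of 7.16, 6.93 and 7.07 in siFAH arrays, against 6.05, 5.99 and 6.20 in control siRNA arrays. The groups were far apart relative to their spread, and the difference was 0.97 (SE 0.083, adjusted p = 0.000517 from limma). SOD3, the extracellular superoxide dismutase, rose by 0.39 (SE 0.079, adjusted p = 0.0148 from limma), a call lost without siFAH replicate 3 or control siRNA replicate 3. SOD1, the cytosolic superoxide dismutase that CCS loads, had 8.83, 8.87 and 8.88 in siFAH arrays, against 8.62, 8.59 and 8.58 in control siRNA arrays. Its difference was 0.26 (SE 0.063, adjusted p = 0.0289 from limma), a call lost with median centring and without siFAH replicate 2 or 3 or control siRNA replicate 2 or 3. CP, the plasma copper oxidase ceruloplasmin, rose by 0.46 (SE 0.082, adjusted p = 0.00930 from limma) but at signals of 2.46 to 2.72 in siFAH arrays and 2.07 to 2.16 in control siRNA arrays, far below the median of all probe sets. LOXL3, a lysyl oxidase that crosslinks collagen, fell, with 7.77, 7.74 and 7.57 in siFAH arrays, against 8.09, 8.09 and 8.36 in control siRNA arrays, a difference of -0.49 (SE 0.091, adjusted p = 0.0111). Its relatives LOXL4 (-0.36, adjusted p = 0.0503 from limma) and LOXL2 (-0.22, adjusted p = 0.0595) also had no overlap. Both of them were called lower by SAM and with median centring, a trend and robust variance, array weights or dim genes left out, which makes 3 lower.

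Of 18 genes that regulate copper handling or reduce the metal, 1 was called higher and 3 lower (all genes, 3.48% and 6.38%). The median was -0.045 (-0.099 with median centring, where that of all genes was -0.049). CUTA, a relative of a bacterial copper tolerance protein, rose by 0.31 (SE 0.066, adjusted p = 0.0176 from limma), a call lost without siFAH replicate 2 or 3 or control siRNA replicate 3. PRNP, the copper-binding prion protein, had signals of 9.35, 9.27 and 9.30 in siFAH arrays, against 9.63, 9.63 and 9.69 in control siRNA arrays, and a difference of -0.34 (SE 0.065, adjusted p = 0.0116, lost without siFAH replicate 2). SLC11A2, the divalent metal transporter DMT1, had a difference of -0.36 (SE 0.074, adjusted p = 0.0159 from limma), lost without siFAH replicate 3 or control siRNA replicate 3. SP1, the factor that binds GC boxes, had 6.81, 6.77 and 6.80 in siFAH arrays, against 6.98, 7.05 and 7.31 in control siRNA arrays. It passed narrowly, at -0.32 (SE 0.089, adjusted p = 0.0480 from limma), and its call was lost after quantile normalization or cyclic loess and without any array other than control siRNA replicate 1. MTF1, the factor of metal response elements, had -0.066 (adjusted p = 0.681). Without control siRNA replicate 3, no gene of this list was called higher and 1 was called lower.

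**Figure D5:**
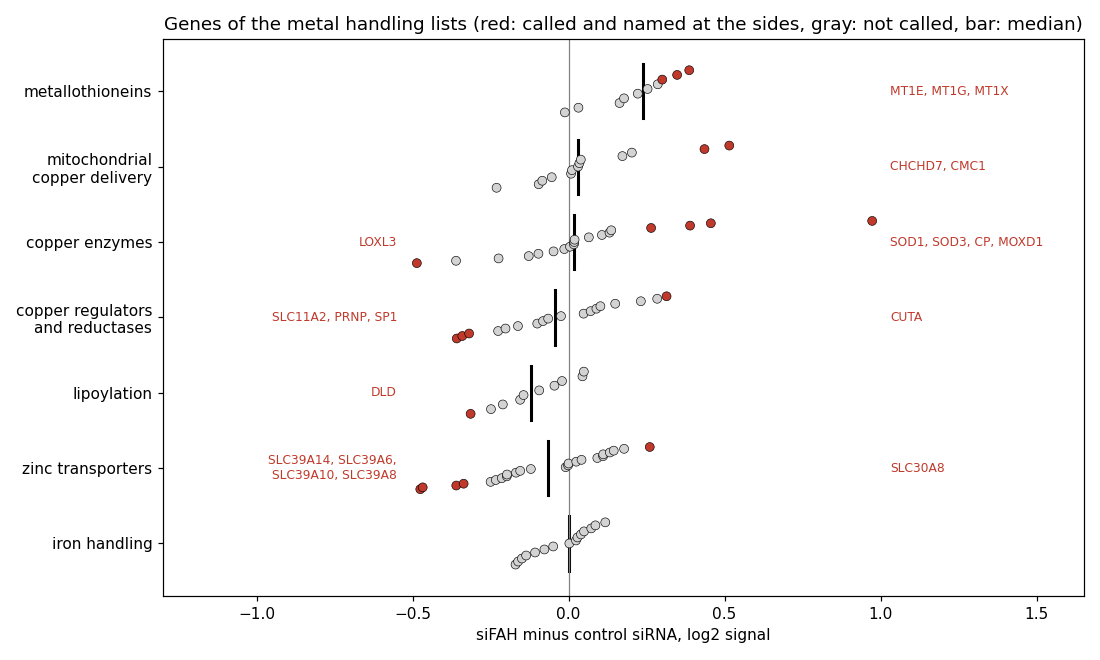
Horizontal axis, difference in log2 signal between siFAH and control siRNA arrays for the genes measured in 7 lists of metal handling genes, red and named at the side where called by limma, gray where not called, with a black bar for the list's median. Medians ran from -0.12 for lipoylation to 0.24 for metallothioneins, and no gene of iron handling was called.

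Copper binds lipoylated enzymes of the mitochondrial matrix, and 10 genes of lipoylation and of the complexes that hold these enzymes were measured. DLD, the shared dihydrolipoyl dehydrogenase, had a difference of -0.31 (SE 0.068, adjusted p = 0.0190 from limma), a call lost without siFAH replicate 2 or 3 or control siRNA replicate 2 or 3. This was the 1 called lower, none was called higher and 9 were not called, beside 6.38% and 3.48% of all genes called lower and higher. The median was -0.12 (-0.17 with median centring, where that of all genes was -0.049). FDX1, the ferredoxin that acts with the lipoyl synthase LIAS, had -0.046 (adjusted p = 0.705). Of the lipoylated subunits in the list, DLAT had -0.21 (adjusted p = 0.0812 from limma), DLST -0.25 (adjusted p = 0.130) and DBT -0.14 (adjusted p = 0.392). DLAT was called lower only without dim genes or with a trend and robust variance, while DLD itself is not one of these subunits.

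Zinc transporters, which serve the other main metal of metallothioneins, were called lower in 4 and higher in 1 of 24 genes, where 6.38% and 3.48% of all genes were. The median was -0.065 (-0.12 with median centring, where that of all genes was -0.049). The 4 were importers of the SLC39 family. SLC39A14 had signals of 6.36, 6.32 and 6.26 in siFAH arrays, against 6.73, 6.71 and 6.93 in control siRNA arrays, a difference of -0.48 (SE 0.077, adjusted p = 0.00580 from limma). SLC39A6 had -0.47 (adjusted p = 0.0113), SLC39A10 had -0.36 (adjusted p = 0.0382) and SLC39A8 had -0.34 (adjusted p = 0.0117), each without overlap. The calls of SLC39A14, SLC39A6 and SLC39A8 held without each array in turn, and that of SLC39A10 was lost without any siFAH array or without control siRNA replicate 3. SLC30A8, an exporter best known from insulin granules, was called higher at 0.26 (adjusted p = 0.0337 from limma), at signals of at most 3.51 and with the call lost in 12 of 16 alternatives. SLC30A1, the zinc exporter that MTF1 controls, had 0.11 (adjusted p = 0.332).

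Of 15 iron genes, measured for comparison with another redox metal, none was called by limma, SAM or the methods' t-test, and none had an unadjusted p under 0.05 by limma. The largest differences were those of TF, transferrin (-0.17, adjusted p = 0.374 from limma), and NCOA4, the receptor for ferritin breakdown (-0.16, adjusted p = 0.357). Counting the genes of all 7 lists once and without the 10 copper genes, 10 of 105 were called higher and 9 lower, beside 3.48% and 6.38% of all genes.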

How the data were processed

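RNA of A375 cells, 3 siFAH and 3 control siRNA samples at 72 h, was read on Affymetrix Human Gene 1.0 ST arrays. The log2 signals were deposited by the authors after RMA, which corrects background, normalizes arrays and summarizes each probe set. No further scaling was applied. Of 28829 probe sets, 19291 with 1 gene symbol were used, 1735 with several and 7803 unnamed were left out, and the brightest probe set of each symbol was kept (18372 genes). Groups were compared by limma 3.58.1 (lmFit, eBayes) under R 4.3.3 (4 residual and 6.52 prior degrees of freedom), two-sided, with Benjamini-Hochberg adjustment over all genes. The tests were tested on simulated data.

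The genes and lists were chosen with earlier results of these data known. The text names all copper genes, FAH, every called gene of each other list (the 2 largest where none was called) and the 5 nearest profiles to SLC31A1. SLC31A2, FKBP15, CDC26, PRPF4, MTF1, FDX1, DLAT, DLST, DBT, SLC30A1, LOXL2, LOXL4, HBB, PDGFRB and the metallothioneins, pigment and lineage genes that were not called are named outside that rule, after their values were seen. Alternatives were quantile normalization, median centring, cyclic loess, leaving out dim genes, a trend and robust variance, array weights, the methods' t-test, SAM (20 arrangements), the mean of probe sets, each probe set on its own, the replicate number as a block, the methods' limits of 1.2-fold and an unadjusted p under 0.05, and leaving out each array. Upstream windows came from RefSeq. Figures were drawn with matplotlib 3.10.9. Precision is set by the number of arrays, and the smallest exact permutation p for 3 against 3 is 0.1.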

Additional observations from a re-analysis of the deposited data

How the results depend on the processing

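Of 18372 genes, 639 were called higher and 1172 lower (64.7% lower). The counts were 416 and 1678 with median centring (80.1% lower), 655 and 1053 after quantile normalization, 695 and 893 after cyclic loess (56.2% lower), 774 and 1703 without dim genes, 1170 and 1743 with array weights and 6 and 8 with the methods' t-test. At the methods' limits they were 871 and 1439. Leaving out 1 array gave 267 to 653 higher and 390 to 1192 lower. Of the 9 copper genes other than SLC31A1, 2 were called higher, against 1 with median centring or with every probe set tested on its own, 0 with the methods' t-test, 3 without dim genes or with a trend and robust variance, and 0 to 2 as each array was left out (0 without siFAH replicate 2 or 3). The count called lower was 0 under each of these alternatives and as each array was left out. Of 105 genes of the other lists, 10 were called higher and 9 lower, against 0 and 0 with the methods' t-test, and 3 to 10 and 5 to 12 as each array was left out. With median centring these were 7 and 12. The sign turned in 4 copper genes, none of them called. ATP7B became -0.040 after quantile normalization, -0.042 with median centring, -0.031 after cyclic loess, -0.063 with array weights, and ran from -0.024 to 0.076 as each array was left out. SCO1 became -0.024 with median centring and ran from -0.0064 to 0.068 as each array was left out. SCO2 became -0.020 with median centring and -0.027 with array weights, and ran from -0.0088 to 0.094. SLC31A2 ran from -0.054 to 0.025. The cause of these changes was not tested. Deviations of same-numbered arrays from their group means correlated at -0.155, -0.089 and -0.274, and those of other pairs at -0.092 to 0.241. With 3 arrays per group such values cannot show whether same-numbered samples were handled together. With the replicate number as a block, 299 genes were higher and 462 lower, 1 of the 9 copper genes was higher (ATOX1, MT1X having an adjusted p of 0.0580 from limma), and 6 and 5 genes of the other lists were higher and lower. Scalings moved the median of all genes from 0.0050 to at most -0.049. Signals near or under the median of all probe sets (4.99), as for SLC31A2, ATP7B, MT1B, MT4, MT1M, CHCHD7, SLC30A8 and CP, limit what their differences show.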
